A study of Homo sapiens with 17 samples.

Results

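L363 cells, a human multiple myeloma line, were treated for 48 h with 0.5 uM of the histone deacetylase inhibitor MS275 and compared with L363 cells that received no treatment for the same time. The comparison takes the 6 arrays that the labels place in these groups, 3 with MS275 and 3 of the untreated control, out of 17 arrays in all. The other 11 arrays hold cells of the same line at the same time under 1 nM or 10 nM rapamycin, with or without 0.5 uM MS275, in groups of 3, except for the group with 10 nM rapamycin and MS275, which has 2 because 1 array was withdrawn at quality control. Total RNA was amplified, labelled with biotin and hybridised to oligonucleotide arrays, and each value is a log2 signal, so that a difference of 1 is a factor of 2 on the linear scale. All groups are 1 cell line, the control is labelled as untreated with no vehicle named, and nothing in the labels tells whether the 3 arrays of a group came from separate cultures. The p-values therefore measure a spread between arrays within groups, which may be technical. That spread was estimated over all 17 arrays and not over the 6 arrays alone.

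Histone deacetylases remove acetyl groups from lysines of histone tails and of other proteins. The class I enzymes HDAC1, HDAC2 and HDAC3 work in the nucleus as the catalytic part of co-repressor complexes, and their removal of acetyl marks is linked to closed chromatin and low transcription. MS275, also called MS-275 or entinostat, is a benzamide that blocks class I enzymes, and cells exposed to such inhibitors are known to gain histone acetylation, to express genes that are silent in their lineage, and to slow their cell cycle.

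The labelled cell type was checked against 8 plasma cell markers. All 8, among them SDC1 (CD138, the surface proteoglycan of plasma cells), IRF4 and TNFRSF17 (BCMA), were measured, with log2 signals between 7.16 and 13.5 over the 17 arrays, and 0 of them passed the threshold with MS275. Markers of T cells lay between 3.52 and 5.78, of B cells between 3.95 and 7.84, of myeloid cells between 2.70 and 6.56, of red cells between 4.92 and 6.84, of epithelial cells between 2.34 and 7.62, and of fibroblasts between 4.32 and 7.09, and 1 of these 25 measured genes, CSF1R, passed. The log2 values of the 5 T cell markers summed to 22.7 to 24.1 with MS275 and 21.1 to 24.5 in the control, so the groups overlapped. Array medians lay between 5.09 and 5.36. Control replicate 1 and replicate 1 of MS275 with 1 nM rapamycin held a narrower range of values than the others, with an SD of 2.14 and 2.15 over all probe sets, against 2.27 to 2.37 on the other 15 arrays. Each of these 2 arrays correlated best with the other (r = 0.966). Main counts that move by over 1.5 times without them are given in both ways. Of 84 named genes past the threshold 5 lost the call without them, of which HEXIM1, CBS and MYEOV are marked below.

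At the threshold MS275 raised more genes than it lowered, by a margin that depended on the arrays. Of 19775 genes tested, 205 rose (1.04%) and 90 fell (0.455%), 295 in all (1.49%), at an adjusted p under 0.05 in limma, and 2130 genes had an unadjusted p under 0.05. Without the 2 narrow arrays there were 288 rises and 243 falls, and with array weights 772 and 732. Without control replicate 1 the counts were 188 and 156, and without MS275 replicate 3 they were 79 and 18. The rises were also larger. Among the 205 genes that rose, the median log2 change was 1.42, 167 changed by over 1, 37 by over 2 and 12 by over 3. Among the 90 genes that fell, the median was -1.11, 57 changed by over 1, and 1, NRROS, by over 2. The median change of all genes was -0.05, with 8528 of 19775 changes positive and 11246 negative, the background for the sign counts of gene lists. The share of 1.49% is the background for the calls in gene lists. A list with 1 call is therefore read as that gene and not as a shift of the list. In each of the 295 genes every MS275 array lay on the same side of every control array, a pattern that 11% of all genes showed, 5.7% with MS275 higher and 5.34% with MS275 lower.

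**Figure D1:**
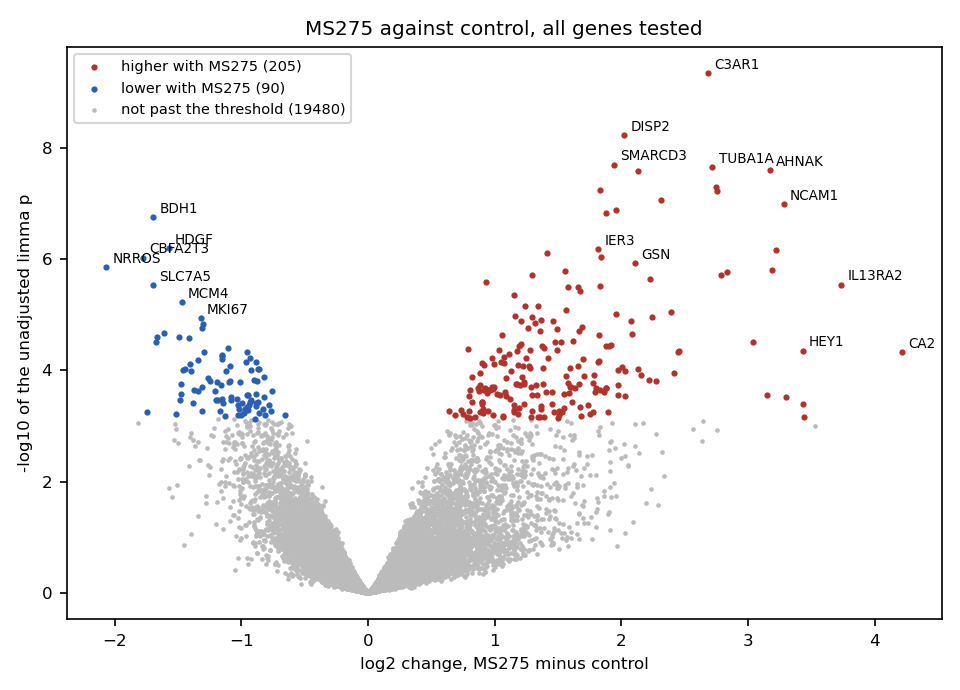
Each point is 1 of the 19775 genes, with the log2 change (MS275 minus control) on the horizontal axis and -log10 of the unadjusted limma p on the vertical axis. Red points are the 205 genes that rose and blue points the 90 that fell at an adjusted p under 0.05, and the rises reach 4.22 on the log2 scale while the falls end at -2.07.

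Signals of different probe sets are not on 1 scale, so the following medians describe brightness and not amounts of RNA. The median log2 signal of the 205 risers was 7.42, 7.27 and 7.52 on the MS275 arrays, against 5.85, 5.73 and 5.88 on the control arrays. The median of all genes was 5.94 to 6.10 on the same control arrays. For the 90 genes that fell the median was 7.90, 7.51 and 7.65 on the MS275 arrays, against 8.92, 8.95 and 8.83 on the control arrays. The number of calls depended on the arrays and the model. It was 662 with the replicate number as a block (413 higher, 249 lower, 3.35% of genes), all 295 among them, 531 without the 2 narrow arrays (288 higher, 243 lower, 2.69%), 257 of the 295 among them, 1504 with array weights (772 higher, 732 lower, 7.61%), and 97 without MS275 replicate 3 (79 higher, 18 lower), all of them among the 295. Fitted on only the 6 MS275 and control arrays, the model called 9 genes (9 higher, 0 lower), and 78 with the replicate block (71 higher, 7 lower). Without the block, no fall thus passed when the rapamycin arrays were left out of the estimate of the spread. In the fit of all arrays, 61 risers and 14 fallers of the 295 passed whichever of the 6 arrays was left out.

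The largest rise was in CA2, the carbonic anhydrase that interconverts carbon dioxide and bicarbonate. Its log2 signal was 9.10, 9.10 and 10.76 on the MS275 arrays, against 4.39, 6.20 and 5.72 on the control arrays. All MS275 arrays lay well above all control arrays, and the change was 4.22 ± 0.73 (SE), or 18.6-fold (limma adjusted p = 0.0105). IL13RA2, a decoy receptor for the cytokine IL-13, had 5.32, 6.27 and 7.30 on the MS275 arrays, against 3.08, 2.45 and 2.16 on the control arrays. The lowest MS275 array stood well above the highest control array. Its change was 3.73 ± 0.50 (adjusted p = 0.00186), and since signal over background is not known, no fold is given for it and the folds of other genes with low control signals may be lower bounds. PDGFC, a ligand of platelet-derived growth factor receptors, gave 6.05, 5.81 and 6.25 on the MS275 arrays, against 2.71, 3.04 and 2.80 on the control arrays. Its arrays agreed closely within each group, and the change was 3.19 ± 0.41 (adjusted p = 0.00135). LAMP3, a lysosomal membrane protein known from mature dendritic cells, rose by 3.23 ± 0.38 (adjusted p = 0.000793). The calls of IL13RA2, PDGFC and LAMP3 held without each of the 6 arrays in turn, while that of CA2 was lost without MS275 replicate 3, the highest array (adjusted p = 0.0663).

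**Figure D2:**
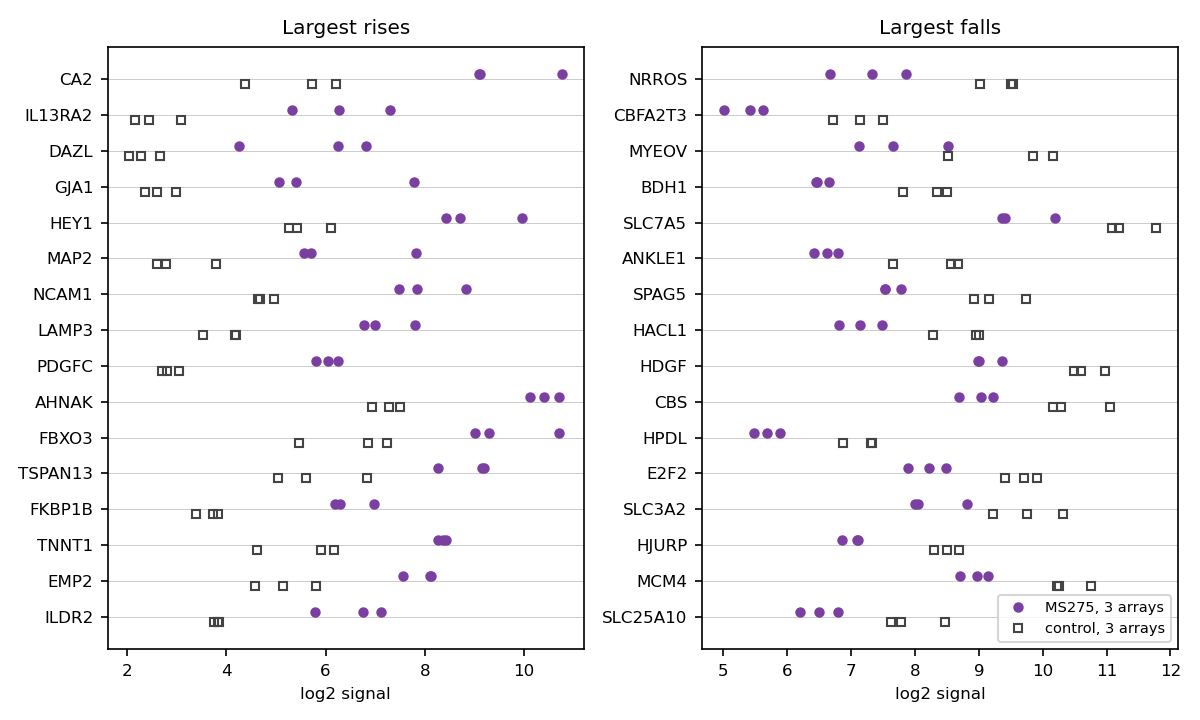
Log2 signal of the 16 genes with the largest rises (left panel) and the 16 with the largest falls (right panel), in order of size from the top. Filled circles are the 3 MS275 arrays and open squares the 3 control arrays of each gene; in MYEOV the nearest arrays of the groups both read 8.52, and in the other 31 genes a gap separates them.

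DAZL, GJA1, TNNT1 and FKBP1B, known from germ cells, cell junctions and muscle, stood among the largest rises. DAZL, an RNA-binding protein of germ cells, had 4.25, 6.82 and 6.26 on the MS275 arrays, against 2.67, 2.28 and 2.05 on the control arrays. GJA1, the connexin of many gap junctions, had 5.41, 5.06 and 7.77 on the MS275 arrays, against 2.99, 2.36 and 2.60 on the control arrays. In both genes the control arrays were close together and the MS275 arrays differed widely among themselves. The changes were 3.45 ± 0.80 (adjusted p = 0.047) and 3.43 ± 0.75 (adjusted p = 0.0344), and both calls were lost without most single arrays, DAZL without MS275 replicate 2 or 3 or any control array (adjusted p up to 0.194) and GJA1 without MS275 replicate 1 or 3 or any control array (up to 0.155). TNNT1, the troponin T of slow skeletal muscle, was steadier, with 8.42, 8.37 and 8.26 on the MS275 arrays, against 6.17, 4.62 and 5.91 on the control arrays. It rose by 2.79 ± 0.36 (adjusted p = 0.00145). FKBP1B, an immunophilin that binds calcium release channels of muscle, rose by 2.84 ± 0.37 (adjusted p = 0.00138), and the calls of TNNT1 and FKBP1B held without each array.

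Of 39 measured germ cell and cancer-testis genes, 3 rose and 0 fell. Beside DAZL these were MAGEB2, a melanoma antigen family member on chromosome X, and PRAME, an antigen of many tumours. MAGEB2 had 6.91, 6.10 and 7.49 on the MS275 arrays, against 3.70, 4.55 and 4.99 on the control arrays, and the change was 2.42 ± 0.46 (adjusted p = 0.0169). PRAME had 8.22, 8.09 and 8.34 on the MS275 arrays, against 7.18, 6.13 and 7.23 on the control arrays, and the change was 1.37 ± 0.31 (adjusted p = 0.0399). In both genes the MS275 arrays lay above all control arrays. The list as a whole did not shift, with a median change of -0.10 beside -0.05 over all genes (0.06 beside 0.05 without the narrow arrays). The MAGEB2 call was lost without MS275 replicate 1 or 3 or control replicate 1 (adjusted p up to 0.098), and that of PRAME without every array but control replicate 1 (up to 0.157).

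Among neuronal genes some members changed strongly as well. Of 49 measured, 4 rose, 0 fell and the median change was 0.09. NCAM1, the neural cell adhesion molecule also known as CD56, had 7.48, 8.82 and 7.85 on the MS275 arrays, against 4.97, 4.69 and 4.65 on the control arrays. It rose by 3.28 ± 0.34, or 9.73-fold (adjusted p = 0.000187), and 4 of its 6 other probe sets moved the same way. MAP2, a microtubule-associated protein of dendrites, had 5.70, 5.56 and 7.83 on the MS275 arrays, against 3.79, 2.60 and 2.79 on the control arrays. Its MS275 replicate 3 was far above the other MS275 arrays, and the change was 3.30 ± 0.70 (adjusted p = 0.0279, and 0.137 at most among the fits that leave out an array, in which it was lost without MS275 replicate 3 or control replicate 2 or 3). MAPT, the microtubule-binding protein tau, rose by 1.30 ± 0.17 (adjusted p = 0.00145), with 8.59, 8.42 and 8.27 on the MS275 arrays, against 7.12, 6.95 and 7.31 on the control arrays. SYT11, a synaptotagmin of vesicle traffic, rose by 1.58 ± 0.21 (adjusted p = 0.00186). NCAM1, MAPT and SYT11 passed without each array in turn. The tubulin TUBA1A, an alpha tubulin prominent in neurons, had 10.47, 10.32 and 10.90 on the MS275 arrays, against 7.86, 7.82 and 7.86 on the control arrays. The 3 control arrays almost coincided, and the rise of 2.72 ± 0.25 was 6.58-fold (adjusted p = 8.61e-05). It was the 1 of 15 measured tubulins past the threshold. With the replicate block 2 rose and 3 fell, with quantile normalization 1 rose and 3 fell, and without the narrow arrays 1 rose and 1 fell. TUBB, the main beta tubulin of dividing cells, changed by -1.13 ± 0.28 (adjusted p = 0.0666, 0.0119 with the replicate block) and TUBA1B by -0.60 ± 0.15 (adjusted p = 0.0697, 0.0412 with the block), both with the opposite sign.

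The promoters of 3 of the largest rises and 3 of the largest falls, each with a window in RefSeq (assembly GRCh38.p14), are printed. They were chosen because these genes carry large changes and because histone deacetylases act at promoters. Some genes that rose by more than MAP2, such as CA2 and HEY1, are not printed, which does not mean that they lack a window. Each line gives the 250 bases before the transcription start, 5′ to 3′ in the direction of the gene, with every CpG in capitals. Over 27305 such windows the median was 11 CpG, with quartiles of 3 and 23. The window of DAZL lies at chr3:16605424-16605673 (minus strand) and holds 28 CpG, that of GJA1 at chr6:121435396-121435645 (plus strand) with 1, and that of MAP2 at chr2:209661246-209661495 (plus strand) with 4.
DAZL: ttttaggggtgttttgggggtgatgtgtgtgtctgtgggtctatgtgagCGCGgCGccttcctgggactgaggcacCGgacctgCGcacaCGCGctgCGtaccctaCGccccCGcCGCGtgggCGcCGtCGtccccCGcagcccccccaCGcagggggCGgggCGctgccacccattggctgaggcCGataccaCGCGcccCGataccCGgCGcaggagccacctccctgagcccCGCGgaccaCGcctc
GJA1: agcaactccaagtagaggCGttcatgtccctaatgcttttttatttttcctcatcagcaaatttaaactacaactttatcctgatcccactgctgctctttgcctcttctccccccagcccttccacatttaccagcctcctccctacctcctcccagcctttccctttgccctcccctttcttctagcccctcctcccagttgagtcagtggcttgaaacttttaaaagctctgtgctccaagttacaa
MAP2: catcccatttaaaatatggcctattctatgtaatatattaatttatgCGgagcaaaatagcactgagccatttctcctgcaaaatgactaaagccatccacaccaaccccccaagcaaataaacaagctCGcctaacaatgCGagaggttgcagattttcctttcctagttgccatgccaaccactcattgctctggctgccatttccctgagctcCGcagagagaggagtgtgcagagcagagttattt
Among the falls, the window of NRROS lies at chr3:196639444-196639693 (plus strand) and holds 22 CpG, that of CBFA2T3 at chr16:88941351-88941600 (minus strand) with 36, and that of BDH1 at chr3:197573344-197573593 (minus strand) with 1.
NRROS: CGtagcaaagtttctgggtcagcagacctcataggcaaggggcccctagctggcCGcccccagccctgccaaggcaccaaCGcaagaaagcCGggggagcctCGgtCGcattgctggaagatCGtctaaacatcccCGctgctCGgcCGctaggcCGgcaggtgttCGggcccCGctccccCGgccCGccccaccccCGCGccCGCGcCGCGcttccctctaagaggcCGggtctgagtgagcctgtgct
CBFA2T3: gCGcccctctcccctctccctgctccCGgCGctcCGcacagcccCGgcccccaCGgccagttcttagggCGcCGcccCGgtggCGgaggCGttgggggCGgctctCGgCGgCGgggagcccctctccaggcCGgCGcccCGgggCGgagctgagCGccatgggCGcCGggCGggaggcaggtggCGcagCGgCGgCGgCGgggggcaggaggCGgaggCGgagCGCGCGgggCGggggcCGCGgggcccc
BDH1: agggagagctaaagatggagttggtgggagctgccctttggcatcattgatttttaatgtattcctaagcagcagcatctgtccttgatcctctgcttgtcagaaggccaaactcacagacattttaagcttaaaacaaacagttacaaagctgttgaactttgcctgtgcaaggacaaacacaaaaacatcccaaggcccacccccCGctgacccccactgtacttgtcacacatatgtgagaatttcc
Both directions thus held a CpG-rich and a CpG-poor window. The letters of the GC box (GGGCGG, either strand) were in the windows of DAZL, NRROS and CBFA2T3 and in 42.3% of all windows. The letters of the AP-1 site (TGAGTCA, either strand) were in that of GJA1 and in 4.16% of all windows, and those of the CCAAT box (CCAAT, either strand) in that of DAZL and in 33.0%. The TATA box (TATAAA), the E-box of MYC and MAX (CACGTG), the E2F site (TTCCCGC), the cell cycle homology region (TTTGAA) and the cyclic AMP response element (TGACGTCA) were in none of the 6 windows on either strand. A match shows letters and not binding. Windows were found for 157 of the 205 risers and 70 of the 90 fallers, under 80% of each, so the sets were not compared.

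Of 36 measured regulators of the actin cytoskeleton 4 rose, 0 fell and the median change was 0.20. AHNAK, a very large scaffold protein beneath the plasma membrane, had 10.71, 10.40 and 10.12 on the MS275 arrays, against 7.50, 7.27 and 6.94 on the control arrays. Its rise of 3.17 ± 0.29 was 9.01-fold (adjusted p = 8.61e-05), and 2 of its 4 other probe sets moved the same way. GSN, which encodes gelsolin, a protein that severs and caps actin filaments and a gene known to respond to deacetylase inhibitors, had 7.84, 7.29 and 7.73 on the MS275 arrays, against 5.85, 4.95 and 5.73 on the control arrays. It rose by 2.11 ± 0.26 (adjusted p = 0.00111), but 0 of its 6 other probe sets had a positive change, their differences running between -0.23 and -0.06. VCL, the focal adhesion protein vinculin, rose by 1.64 ± 0.33 (adjusted p = 0.0236) with its 1 other probe set moving the other way, and TMSB10, an actin monomer binder, by 1.61 ± 0.35 (adjusted p = 0.0331). The VCL call was lost without MS275 replicate 2 or 3 (up to 0.109) and that of TMSB10 without every array but control replicate 1 (up to 0.137), whereas AHNAK and GSN passed without each array.

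Several receptors and signalling proteins were among the firmest calls. C3AR1, the receptor of the complement fragment C3a, had the smallest adjusted p of all genes. Its log2 signal was 8.06, 7.84 and 8.05 on the MS275 arrays, against 5.31, 5.55 and 5.05 on the control arrays, with a spread within each group far below the gap between them, and the rise was 2.69 ± 0.18, or 6.43-fold (adjusted p = 9.08e-06). DISP2, of the dispatched family of membrane proteins, had 7.89, 8.05 and 7.68 on the MS275 arrays, against 5.84, 5.92 and 5.79 on the control arrays and rose by 2.02 ± 0.17 (adjusted p = 5.95e-05). IL17RD, known as an inhibitor of fibroblast growth factor signalling, had 5.83, 5.86 and 6.10 on the MS275 arrays, against 4.14, 3.68 and 3.57 on the control arrays and rose by 2.13 ± 0.20 (adjusted p = 8.61e-05). The groups were again far apart in both. PTPRD, a receptor tyrosine phosphatase, rose by 1.84 ± 0.18 (adjusted p = 0.000132), and ILDR2, an immunoglobulin-like membrane receptor, by 2.75 ± 0.27 (adjusted p = 0.000132). EMP2, a tetraspan membrane protein, had 8.09, 7.57 and 8.12 on the MS275 arrays, against 4.58, 5.81 and 5.14 on the control arrays and rose by 2.75 ± 0.27 (adjusted p = 0.000132). Among secreted factors ANG, the ribonuclease angiogenin, rose by 2.31 ± 0.23 (adjusted p = 0.000174). SMARCD3, a subunit of the BAF chromatin remodelling complex, had 7.29, 7.21 and 7.02 on the MS275 arrays, against 5.44, 4.91 and 5.34 on the control arrays and rose by 1.94 ± 0.17 (adjusted p = 8.61e-05), with its 1 other probe set moving the other way. All genes of this paragraph passed without each of the 6 arrays.

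In the Notch, TGF beta and WNT pathways single members moved, beside 1.49% of all genes called. These few calls are read as single genes and not as results about the pathways. HEY1, a repressor that Notch induces, had 8.70, 8.43 and 9.95 on the MS275 arrays, against 5.42, 5.26 and 6.11 on the control arrays. The groups were far apart, with MS275 replicate 3 the highest array, and the rise was 3.43 ± 0.59, or 10.8-fold (adjusted p = 0.0105). MFNG, a glycosyltransferase that modifies Notch receptors, fell and had 9.04, 8.45 and 8.55 on the MS275 arrays, against 9.94, 9.85 and 9.61 on the control arrays, a change of -1.12 ± 0.21 (adjusted p = 0.0156). These were the 2 of 32 measured Notch pathway genes past the threshold, and the median of the list was 0.05. Of 34 measured genes of the TGF beta and BMP pathway, TGFBR3, the co-receptor betaglycan, rose by 2.46 ± 0.43 (adjusted p = 0.0105), and NRROS, which binds latent TGF beta, fell (3 rose and 1 fell with the replicate block). WNT11, a WNT ligand, was the 1 of 32 WNT pathway genes past the threshold and rose by 1.38 ± 0.23 (adjusted p = 0.00966), where the block gave 1 riser and 1 faller and the fit without the narrow arrays 2 risers. The calls of HEY1, TGFBR3 and WNT11 were lost without MS275 replicate 3 (adjusted p = 0.0647, 0.061 and 0.0612), and that of MFNG without MS275 replicate 2 or 3 (up to 0.0873).

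MHC class II genes, which present antigen to helper T cells, had the highest median change of the 56 lists, although with array weights it was 0.51, below cytosolic ribosomal proteins at 0.61 and metallothioneins at 0.55. Of 16 measured, 14 had a positive change, 3 rose, 0 fell and the median was 0.76 (8 rose with the replicate block, 2.09% of all genes rising there, and 2 without the narrow arrays). HLA-DMA, which helps load peptides, had 11.95, 12.004 and 12.05 on the MS275 arrays, against 10.98, 11.10 and 10.94 on the control arrays, arrays that agreed closely within each group. It rose by 1.00 ± 0.18 (adjusted p = 0.0139). HLA-DPB1, a beta chain of a presenting molecule, had 10.66, 11.16 and 11.08 on the MS275 arrays, against 10.13, 10.11 and 9.89 on the control arrays and rose by 0.92 ± 0.19 (adjusted p = 0.0236). HLA-DRB4 rose by 1.51 ± 0.34 (adjusted p = 0.0414), and since HLA-DRB genes are alike in sequence its probe set may read more than 1 of them. CIITA, the co-activator that drives these genes, changed by 0.57 ± 0.46 (adjusted p = 0.781). The HLA-DRB4 call was lost without any 1 of the 6 arrays (up to 0.192), HLA-DMA without MS275 replicate 3 or control replicate 3 (up to 0.0743), and HLA-DPB1 without those or MS275 replicate 2 (up to 0.117). In MHC class I presentation 0 of 16 measured genes passed (1 rose and 1 fell without the narrow arrays), and NLRC5, the class I co-activator, changed by 1.00 ± 0.24 (adjusted p = 0.0563, 0.0185 with the block).

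Other immune genes rose singly, beside 1.04% of all genes that rose. NCR3LG1, the ligand B7-H6 of an activating receptor on natural killer cells, had 6.39, 6.36 and 5.68 on the MS275 arrays, against 4.68, 4.66 and 3.77 on the control arrays and rose by 1.78 ± 0.35 (adjusted p = 0.0217). It was the 1 of 11 such ligands past the threshold. CD48, another ligand of natural killer cells, changed by -0.87 ± 0.21 (adjusted p = 0.0601, 0.0268 with the block). IFI6, an interferon-induced protein, was the 1 of 31 interferon-stimulated genes to pass, with 8.98, 9.07 and 8.73 on the MS275 arrays, against 7.86, 6.91 and 6.10 on the control arrays and a rise of 1.97 ± 0.39 (adjusted p = 0.0224). CSF1R, the receptor of a macrophage growth factor, rose by 1.00 ± 0.20 (adjusted p = 0.0236), while the other 3 measured myeloid markers, CD14, LYZ and ITGAM, did not pass and the summed log2 signal of all 4 was 18.3 to 19.1 with MS275 and 17.3 to 19.3 in the control. The chemokine receptor CCR2 rose by 0.99 ± 0.23 (adjusted p = 0.0449). IL15, a cytokine of natural killer and T cells, changed by 2.56 ± 0.63 with no overlap between the groups, but its adjusted p was 0.0624 (0.0105 with the block). Single arrays mattered here too: the call was lost for IFI6 without every array but control replicate 1 (up to 0.0849), for NCR3LG1 without MS275 replicate 1 or 2 or control replicate 3 (up to 0.0904), for CSF1R without MS275 replicate 1 or 3 or control replicate 3 (up to 0.126) and for CCR2 without any 1 of the 6 (up to 0.143).

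Among plasma cell and B cell identity genes 1 of each list passed. Of 26 plasma cell genes 1 rose and 0 fell (2 rose and 2 fell with the replicate block), beside 1.49% of all genes called. The riser was GPRC5D, a surface receptor used as a target in myeloma, with 9.78, 9.29 and 8.92 on the MS275 arrays, against 8.26, 7.51 and 7.83 on the control arrays. The rise was 1.46 ± 0.23 (adjusted p = 0.00517) and held without each array. Of 17 B cell genes 1 rose, BACH2, a repressor that opposes plasma cell differentiation, with 8.96, 8.91 and 9.50 on the MS275 arrays, against 6.59, 7.57 and 7.94 on the control arrays and a change of 1.76 ± 0.40 (adjusted p = 0.0439, lost without every array but control replicate 3, up to 0.201). SDC1 had 12.34, 12.40 and 11.35 on the MS275 arrays, against 13.15, 13.02 and 13.10 on the control arrays, a difference without overlap of -1.06 ± 0.33 that did not pass (adjusted p = 0.168, 0.0323 with the block). PRDM1, the repressor that sets the plasma cell programme, changed by 1.36 ± 0.44 (adjusted p = 0.186, 0.0463 with the block), IRF4 by -0.32 ± 0.21 (adjusted p = 0.689) and CD38 by 0.47 ± 0.20 (adjusted p = 0.41).

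Among genes of cell death and stress, BCL2L11, which encodes the death activator BIM, had 9.79, 10.40 and 10.52 on the MS275 arrays, against 8.40, 9.03 and 9.07 on the control arrays. All of its 6 other probe sets moved the same way, and the rise was 1.41 ± 0.29 (adjusted p = 0.0258). It was the 1 of 15 measured BCL2 family genes past the threshold, and the call was lost without MS275 replicate 2 or 3 or control replicate 1 or 3 (up to 0.133). MCL1, a survival protein on which myeloma cells rely, changed by 0.17 ± 0.17 (adjusted p = 0.83). IER3, an immediate early gene, had 7.42, 7.08 and 7.85 on the MS275 arrays, against 5.86, 5.67 and 5.37 on the control arrays and rose by 1.82 ± 0.22 (adjusted p = 0.000793), a call that held without each array. NFKBIA, the inhibitor that holds NF-kB in the cytoplasm, rose by 1.20 ± 0.24 (adjusted p = 0.0226, lost without MS275 replicate 1 or 3 or control replicate 1 or 2, up to 0.113), whereas NFKB1, a precursor of NF-kB itself, changed by -1.40 ± 0.36 (adjusted p = 0.073, 0.0105 with the block). ZMAT3, a p53 target, rose by 1.23 ± 0.27 (adjusted p = 0.0344, lost without every array but control replicate 3, up to 0.163) as the 1 of 24 p53 pathway genes (2 with the block or without the narrow arrays). Of all genes 1.04% rose. CDKN1A, the cell cycle inhibitor p21 and another p53 target, changed by 0.82 ± 0.43 (adjusted p = 0.561), and the groups overlapped.

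A list of 25 measured genes known to rise with deacetylase inhibitors held 4 that rose, 0 that fell, 19 with a positive change and a median of 0.37 (0.52 without the narrow arrays, where 3 rose, and 0.24 without MS275 replicate 1). Beside GSN and SYT11 these were SAT1, which acetylates spermidine and spermine, and HEXIM1, an inhibitor of the elongation kinase P-TEFb. SAT1 had 8.38, 8.60 and 9.44 on the MS275 arrays, against 6.27, 7.26 and 7.19 on the control arrays, a rise of 1.90 ± 0.43 (adjusted p = 0.0414). HEXIM1 had 8.94, 8.76 and 9.36 on the MS275 arrays, against 7.74, 7.84 and 8.04 on the control arrays, a rise of 1.15 ± 0.26 (adjusted p = 0.0414), and 1 of its 2 other probe sets moved the same way. Both calls were lost without any 1 of the 6 arrays (adjusted p up to 0.207 in each), and HEXIM1 also without the narrow arrays (adjusted p = 0.0813). TXNIP, a thioredoxin inhibitor of the same list, changed by 0.47 ± 0.39 (adjusted p = 0.788). PIK3CD, the catalytic subunit p110 delta of phosphoinositide kinase and 1 of 35 genes on the mTOR list, was the 1 gene of that list to pass (2 with the block) and rose by 1.27 ± 0.23 (adjusted p = 0.0143, 0.0873 without MS275 replicate 3), with its 1 other probe set moving the other way. Of all genes 1.04% rose.

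**Figure D3:**
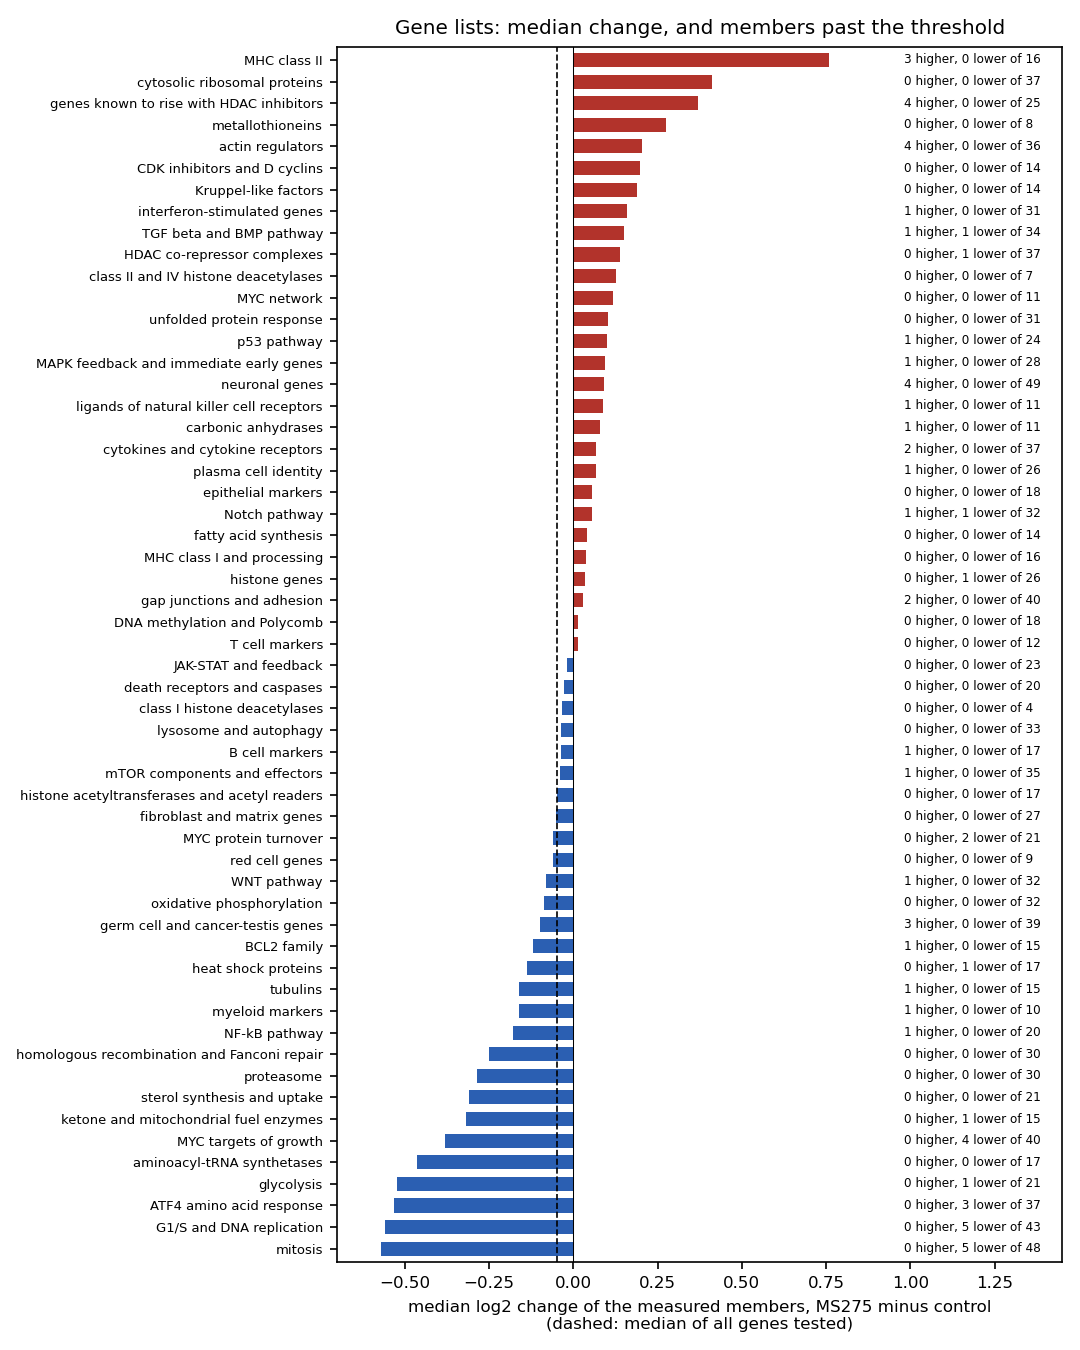
Median log2 change (MS275 minus control) of the measured members of 56 gene lists, in order from the highest, with the members past the limma threshold given at the right. The dashed line is the median of all genes, -0.05; MHC class II is highest at 0.76, and mitosis and G1/S genes are lowest at -0.57 and -0.56.

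Genes of proliferation were among those that fell. Of 48 measured mitosis genes 45 had a negative change, 5 fell, 0 rose and the median was -0.57. Of 43 measured genes of the G1/S step and DNA replication 38 had a negative change, 5 fell, 0 rose and the median was -0.56. MKI67, the proliferation marker Ki-67, had 7.27, 7.49 and 7.36 on the MS275 arrays, against 8.72, 8.77 and 8.60 on the control arrays. The groups were clearly apart, the change was -1.32 ± 0.20 (adjusted p = 0.00493), the call held without each array and its 3 other probe sets also had lower values. MCM4, a subunit of the replicative helicase, had 8.97, 8.70 and 9.15 on the MS275 arrays, against 10.22, 10.25 and 10.76 on the control arrays and fell with a change of -1.47 ± 0.21 (adjusted p = 0.00323), again whichever array was left out. SPAG5, the spindle protein astrin, had 7.52, 7.52 and 7.79 on the MS275 arrays, against 8.93, 9.16 and 9.73 on the control arrays, a change of -1.66 ± 0.27 (adjusted p = 0.00789), which held in the same way.

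The other proliferation genes past the threshold were also lower, while most members of both lists did not pass. MCM5, another helicase subunit, changed by -1.37 ± 0.28, CDC45, which activates the helicase, by -1.25 ± 0.25, the phosphatase CDC25A by -1.15 ± 0.20 and the transcription factor E2F2 by -1.48 ± 0.32, with limma adjusted p of 0.0248, 0.0211, 0.0121 and 0.0312. MYBL2, a transcription factor of the G2 phase, had 9.18, 8.69 and 8.91 on the MS275 arrays, against 9.92, 10.01 and 10.73 on the control arrays and changed by -1.29 ± 0.22 (adjusted p = 0.0105). The mitotic kinases PLK1 and AURKA changed by -1.38 ± 0.30 and -1.17 ± 0.26, the condensin subunit NCAPH by -1.18 ± 0.25 and HJURP, which loads the centromeric histone, by -1.47 ± 0.29 (adjusted p = 0.0333, 0.0414, 0.031 and 0.0221). These 9 calls were less stable than those of MKI67 and MCM4. All 9 were lost without MS275 replicate 3, and all but that of MYBL2 also without control replicate 3. The highest adjusted p among the fits that leave out an array was 0.117 for MCM5, 0.089 for CDC45, 0.0661 for CDC25A, 0.153 for E2F2, 0.0513 for MYBL2, 0.134 for PLK1, 0.161 for AURKA, 0.121 for NCAPH and 0.109 for HJURP.

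Control replicate 1, the narrow array, lay apart from the other control arrays in these lists. The median deviation of the G1/S genes from their mean over all 17 arrays was 0.22, 0.20 and 0.39 on the MS275 arrays, against 0.29, 1.10 and 1.17 on the control arrays, so the groups overlapped through that array. For the mitosis genes it was 0.15, 0.22 and 0.58 with MS275, against 0.50, 1.26 and 1.38 in the control. Without control replicate 3 the G1/S median was -0.36. Without the 2 narrow arrays the list medians were -0.87 and -0.99, with 14 G1/S genes and 11 mitosis genes lower and 0 higher, where 1.23% of all genes were lower. With the replicate block 8 genes of each list were lower and 0 higher, where 1.26% of all genes were lower. Of 30 genes of homologous recombination and Fanconi repair 0 passed (1 fell with the block), and the median was -0.25, with -0.58 without the narrow arrays and -0.06 without control replicate 2.

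**Figure D4:**
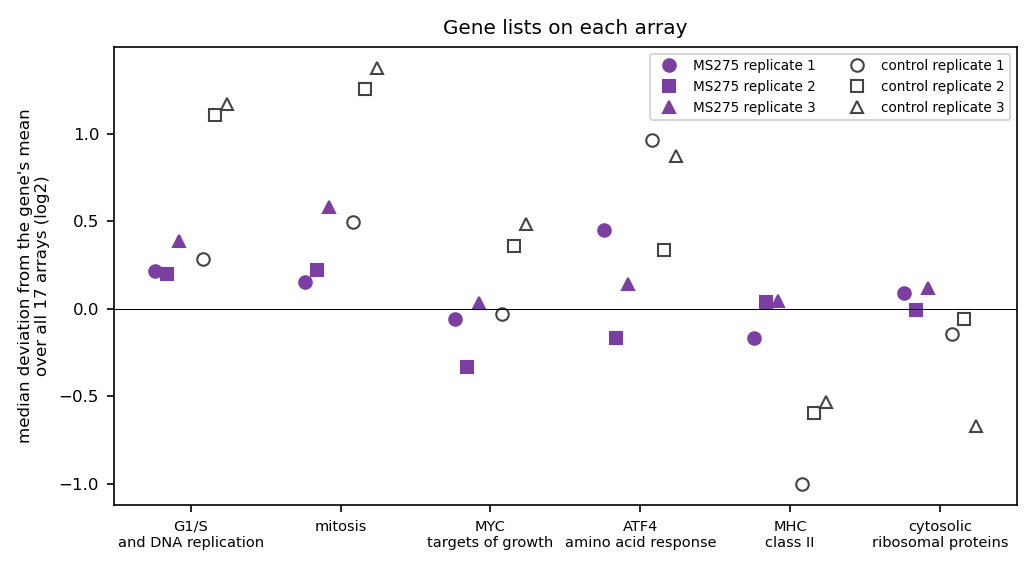
Median deviation of 6 gene lists from the 17-array mean of each gene, in log2 units, on each MS275 array (filled, left in each column) and each control array (open, right). Control replicate 1 lies near the MS275 arrays for G1/S, mitosis and MYC target genes, while in the MHC class II column all 3 control arrays lie below all 3 MS275 arrays.

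Genes of growth and amino acid supply were also among those that fell. Of 40 measured MYC targets of growth 4 fell, 0 rose, 32 had a negative change and the median was -0.38. With the replicate block 6 fell, without the narrow arrays 6 fell with a median of -0.63, and without control replicate 3 the median was -0.25. SLC7A5, the light chain of the large neutral amino acid transporter LAT1, had 10.19, 9.36 and 9.41 on the MS275 arrays, against 11.78, 11.19 and 11.08 on the control arrays. It changed by -1.70 ± 0.23, a signal 3.24-fold lower (adjusted p = 0.00186), and passed without each array. SLC3A2, the heavy chain of the same transporter, had 8.82, 8.05 and 7.9995 on the MS275 arrays, against 10.31, 9.22 and 9.76 on the control arrays and changed by -1.48 ± 0.31 (adjusted p = 0.0265, lost without MS275 replicate 2 or 3 or control replicate 1 or 3, up to 0.134). Both chains of the transporter were thus lower. CAD, which starts pyrimidine synthesis, changed by -1.09 ± 0.21, the folate carrier SLC19A1 by -1.15 ± 0.20 and NOLC1, a nucleolar chaperone, by -0.93 ± 0.17 (adjusted p = 0.021, 0.0116 and 0.0123). Their calls were lost without MS275 replicate 2 or 3 or control replicate 3 for CAD (up to 0.113), without MS275 replicate 3 for SLC19A1 (0.0743) and without MS275 replicate 1 or control replicate 3 for NOLC1 (up to 0.0529).

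Of 37 measured genes of the amino acid response under ATF4, 34 had a negative change, and the median was -0.53. At the threshold 3 fell and 0 rose (5 fell with the block, 2 without the narrow arrays and 1 with quantile normalization). The list's median deviation was 0.45, -0.17 and 0.14 on the MS275 arrays, against 0.96, 0.34 and 0.87 on the control arrays, so the groups overlapped. The 3 genes that fell were SLC7A5, SLC3A2 and CBS, the first enzyme of transsulfuration. CBS had 9.22, 9.04 and 8.69 on the MS275 arrays, against 11.06, 10.15 and 10.29 on the control arrays and changed by -1.52 ± 0.35 (adjusted p = 0.0439). The CBS call was lost without any 1 of the 6 arrays (up to 0.195) and without the narrow arrays (0.0818). Of 17 aminoacyl-tRNA synthetases, which charge transfer RNAs, 16 had a negative change, with a median of -0.46, but 0 passed (2 fell with the block or without the narrow arrays). That median was -0.13 without control replicate 3, whose median deviation was 0.88, against 0.21 on control replicate 2 and -0.03 on control replicate 1. GARS1 had the smallest adjusted p among them, with a change of -0.99 ± 0.30 (adjusted p = 0.15, 0.0456 with the block). MYC itself did not pass, as it changed by 0.22 ± 0.27 (adjusted p = 0.871), and its partner MAX by 0.48 ± 0.35 (adjusted p = 0.75).

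Among genes of energy metabolism some falls were firm and others depended on single arrays. BDH1, a mitochondrial enzyme that interconverts the ketone bodies, had 6.65, 6.47 and 6.45 on the MS275 arrays, against 7.82, 8.34 and 8.50 on the control arrays. The MS275 arrays lay close together below all control arrays, and the change was -1.70 ± 0.18, a signal 3.24-fold lower (adjusted p = 0.000249). It was the 1 of 15 genes of ketone and mitochondrial fuel use to pass (2 with the block or without the narrow arrays), with OXCT1, which uses ketone bodies, at -0.86 ± 0.20 (adjusted p = 0.0531, 0.0166 with the block). SLC2A1, the glucose transporter GLUT1, was the 1 of 21 glycolysis genes to pass (4 with the block, 3 with quantile normalization and 2 without the narrow arrays). It had 7.06, 6.67 and 6.22 on the MS275 arrays, against 8.0037, 8.07 and 7.81 on the control arrays. Its change was -1.31 ± 0.27 (adjusted p = 0.0236, lost without MS275 replicate 2 or 3 or control replicate 2 or 3, up to 0.127). The list's median was -0.52, 17 of 21 changes were negative, and HK2, the hexokinase of growing cells, was at -0.82 ± 0.20 (adjusted p = 0.0559, 0.0448 with the block). In sterol synthesis and uptake 0 of 21 passed (3 fell with the block), with a median of -0.31 and of -0.20 without MS275 replicate 2. In fatty acid synthesis 0 of 14 passed (3 fell with the block or without the narrow arrays), with a median of 0.04 and of -0.02 without the narrow arrays, and FASN, the fatty acid synthase, stood at -1.52 ± 0.37 (adjusted p = 0.0561, 0.0325 with the block). HACL1, a peroxisomal enzyme of fatty acid oxidation, had 7.14, 6.80 and 7.48 on the MS275 arrays, against 8.96, 8.29 and 9.01 on the control arrays and a change of -1.61 ± 0.26 (adjusted p = 0.00721). SLC25A10, a carrier of dicarboxylates in the mitochondrial membrane, changed by -1.46 ± 0.27 (adjusted p = 0.0156) and HPDL, a mitochondrial protein, by -1.49 ± 0.24 (adjusted p = 0.00788). BDH1, HACL1 and HPDL passed without each array, and SLC25A10 was lost without MS275 replicate 2 or 3 or control replicate 3 (up to 0.0743).

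Among chromatin and signalling genes, CBFA2T3, a co-repressor that recruits histone deacetylases, was the 1 of 37 co-repressor genes past the threshold. It had 5.62, 5.42 and 5.0027 on the MS275 arrays, against 6.72, 7.14 and 7.50 on the control arrays, a change of -1.77 ± 0.22 or 3.42-fold lower (adjusted p = 0.000933). ZMYND8, another chromatin reader of this list, changed by -1.82 ± 0.43, more than CBFA2T3, but its adjusted p was 0.0545 (0.00899 with the block). Other members had the opposite sign, with GPS2 at 0.88 ± 0.21, MIDEAS at 0.86 ± 0.21 and SAP30L at 1.05 ± 0.28 (adjusted p = 0.0551, 0.067 and 0.0884), and with the replicate block 3 members of the list rose and 2 fell, and with quantile normalization 2 rose and 1 fell. NRROS, the largest fall, had 7.86, 7.32 and 6.67 on the MS275 arrays, against 9.50, 9.53 and 9.02 on the control arrays and changed by -2.07 ± 0.26, or 4.19-fold lower (adjusted p = 0.00125). MYEOV, named for its overexpression in myeloma, had 8.52, 7.13 and 7.65 on the MS275 arrays, against 9.84, 8.52 and 10.17 on the control arrays. Its nearest arrays of the groups both read 8.52, the change was -1.74 ± 0.39 (adjusted p = 0.0414), and the call was lost without MS275 replicate 2 or 3 or control replicate 1 or 3 (up to 0.164) and without the narrow arrays (0.0952). HDGF, a growth factor that binds chromatin, had 9.36, 8.98 and 9.0046 on the MS275 arrays, against 10.60, 10.49 and 10.97 on the control arrays and changed by -1.57 ± 0.19 (adjusted p = 0.000793). IRAK1, a kinase of Toll-like and interleukin receptors, had 10.54, 10.46 and 9.72 on the MS275 arrays, against 11.52, 11.66 and 11.79 on the control arrays and changed by -1.41 ± 0.23 (adjusted p = 0.00789). FERMT3, the integrin activator of blood cells, changed by -1.45 ± 0.27 (adjusted p = 0.0154, lost without MS275 replicate 3 or control replicate 2, up to 0.0873), and PTPN7, a phosphatase of blood cells, by -1.39 ± 0.26 (adjusted p = 0.0158, 0.0947 without MS275 replicate 3). CBFA2T3, NRROS, HDGF and IRAK1 passed without each array. Of 26 measured histone genes 1 fell (2 with the block or without the narrow arrays), H2AX, a variant that marks broken DNA when phosphorylated, by -0.93 ± 0.20 (adjusted p = 0.0332, lost without every array but control replicate 1, up to 0.132). Of all genes 0.455% fell.

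The drug's targets and some broad programmes gave no call. Of the class I deacetylases, HDAC1 had 9.76, 9.69 and 9.92 on the MS275 arrays, against 9.28, 10.37 and 10.52 on the control arrays, a change of -0.26 ± 0.26 (adjusted p = 0.83), though without the narrow arrays it was -0.65 and passed (adjusted p = 0.0186). HDAC2, HDAC3 and HDAC8 changed by -0.12 ± 0.43, 0.05 ± 0.28 and 0.17 ± 0.22 (adjusted p = 0.962, 0.974 and 0.879), and 0 of 7 class II and IV enzymes passed. Of 37 cytosolic ribosomal proteins 36 had a positive change, with a median of 0.41, but 0 passed (24 rose with array weights, where 3.9% of all genes did, and 6 without control replicate 2). The median was 0.23 without control replicate 3. On the arrays their median deviation was 0.09, -0.01 and 0.12 with MS275, against -0.14, -0.06 and -0.67 in the control, with control replicate 3 far below the other arrays. The array weights gave control replicate 3 a weight of 2.92, against 0.11 and 0.54 for control replicates 1 and 2, so the 24 rises rest largely on that array. The unfolded protein response (0 of 31), the proteasome (0 of 30), oxidative phosphorylation (0 of 32), lysosome and autophagy genes (0 of 33), metallothioneins (0 of 8) and Kruppel-like factors (0 of 14) had no member past the threshold, and without the narrow arrays 1 oxidative phosphorylation gene fell and 1 lysosome gene rose. The cell cycle inhibitor CDKN1B changed by 0.24 ± 0.56 (adjusted p = 0.936).

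Genes that changed were spread over the genome. Risers lay on each of chromosomes 1 to 22 and on X, with 25 on chromosome 1, which holds 9.74% of the tested genes and 12.2% of the risers. Fallers lay on all of these except chromosomes 13, 15 and 18. In the order of genes in RefSeq, 6 pairs of neighbours, looked for after the values were seen, rose together: PCNX2 with MAP3K21, TRABD2A with TMSB10, ADAM23 with MDH1B, SGPP1 with SYNE2, RSPH1 with SLC37A1, and CRYBA4 with CRYBB1, the last 2 being lens crystallins, with changes of 2.0 and 1.20. No pair of neighbours among the tested genes fell together. SLC37A1 and CRYBB1 passed without each of the 6 arrays. The calls of the other genes in these pairs were lost without 1 array for ADAM23 and up to 5 for MAP3K21, SGPP1 and TMSB10. How many such pairs would be found among genes placed at random was not tested.

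The effect of MS275 was also measured in cells under rapamycin, an inhibitor of the kinase mTOR, on arrays outside the MS275 and control groups, though all 17 arrays share 1 estimate of the spread. MS275 with 1 nM rapamycin against 1 nM rapamycin gave 185 genes that rose (0.936%) and 58 that fell (0.293%). MS275 with 10 nM rapamycin against 10 nM rapamycin gave 59 that rose (0.298%) and 27 that fell (0.137%). With the replicate block the totals were 559 and 338, and without the narrow arrays 265 and 262. The block total at 10 nM is uncertain, because replicate numbers paired these arrays poorly. Between 10 nM rapamycin without and with MS275, the deviations of replicates 1 and 2 correlated at 0.10 and -0.63. Of the 205 genes that MS275 raised without rapamycin, 202 had a positive change at each dose. At 1 nM 99 of them rose again, 48.3% of the 205 and 53.5% of the 185, and at 10 nM 52 did, 25.4% of the 205 and 88.1% of the 59. Of the 90 genes that fell, 87 had a negative change at 1 nM and 90 at 10 nM. At 1 nM 29 of them fell again, 32.2% of the 90 and 50% of the 58, and at 10 nM 16 did, 17.8% of the 90 and 59.3% of the 27. The median change of the 205 was 1.15 and 1.05 under 1 and 10 nM, and that of the 90 was -0.72 and -0.89, beside 1.42 and -1.11 without rapamycin, where the genes had been chosen.

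**Figure D5:**
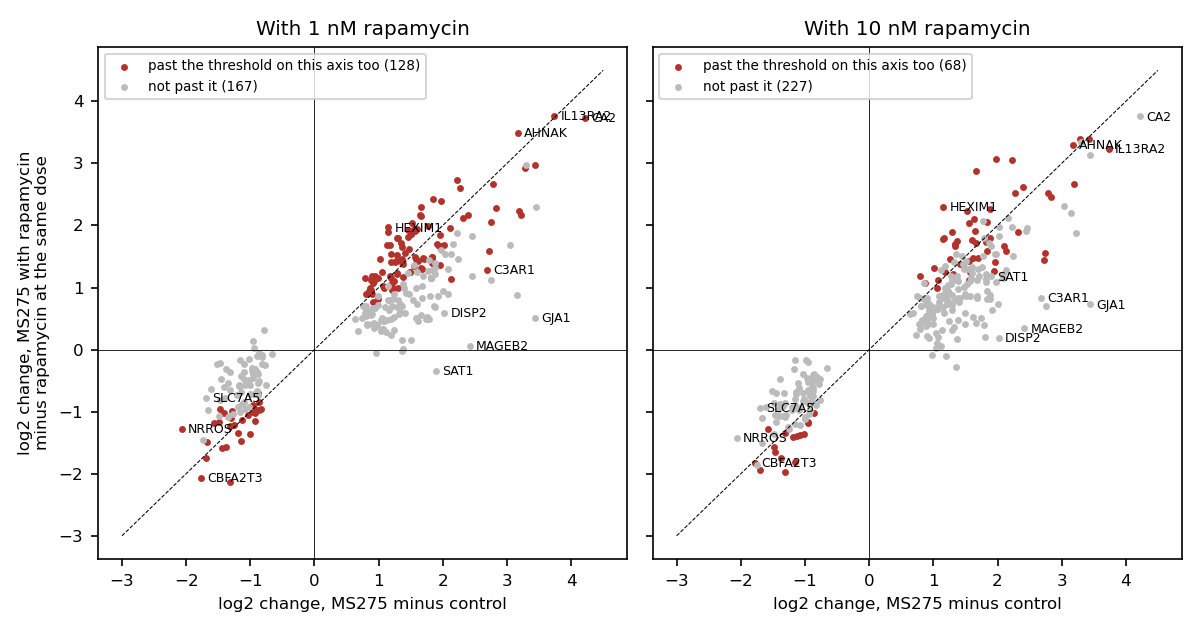
Log2 change with MS275 for the 295 genes past the threshold, without rapamycin on the horizontal axis (MS275 minus control) and at 1 nM (left panel) or 10 nM rapamycin (right panel) on the vertical axis (MS275 with rapamycin minus rapamycin). Red points passed on the vertical axis too, 128 at 1 nM and 68 at 10 nM; most points lie in the upper right and lower left, and the dashed line marks equal changes.

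The estimated change under rapamycin is given here for single genes that had been called on the change without it. AHNAK changed by 3.49 ± 0.29 at 1 nM and 3.30 ± 0.32 at 10 nM, both past the threshold (adjusted p = 9.6e-05 and 0.000672), and IL13RA2 by 3.76 and 3.23 (adjusted p = 0.00221 and 0.0222). CBFA2T3 changed by -2.06 and -1.83 (adjusted p = 0.000423 and 0.00298), and BDH1 by -1.75 and -1.94 (adjusted p = 0.000423 and 0.000672). In these 4 genes the change under rapamycin was close to that without it. C3AR1 changed by 1.29 and 0.83 (adjusted p = 0.00313 and 0.107), DISP2 by 0.59 and 0.19 (0.125 and 1), GJA1 by 0.52 and 0.73 (0.751 and 1) and SLC7A5 by -0.78 and -0.94 (0.151 and 0.162). These estimates were smaller in size than those without rapamycin, but none of the differences passed at either dose in the fit of all arrays. Whether the effect of MS275 differed with and without rapamycin was tested as such, and 0 of 19775 genes passed at either dose in limma (0%), with a smallest adjusted p of 0.49 at 1 nM and 0.062 at 10 nM, 916 and 194 genes at an unadjusted p under 0.05, while array weights gave 2 genes at 10 nM, and leaving out single arrays 0 to 1 at 1 nM and 0 to 2 at 10 nM.

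MS275 was also set against rapamycin alone, which shares the 3 MS275 arrays but not the control arrays. Against 1 nM rapamycin 355 genes were higher with MS275 (1.8%) and 69 lower (0.349%), and against 10 nM rapamycin 354 were higher (1.79%) and 91 lower (0.46%), 424 (2.14%) and 445 (2.25%) in all. Of the 205 risers 153 passed against 1 nM and 150 against 10 nM, and of the 90 fallers 29 and 30. Rapamycin alone against the same control arrays gave a median change of -0.08 and -0.07 at 1 and 10 nM for the 205 risers, and of -0.52 and -0.44 for the 90 fallers. These values share the control arrays with the MS275 comparison that chose the genes, so they are given side by side only. As examples, TUBA1A changed by 2.72 with MS275, against -0.04 and -0.06 with 1 and 10 nM rapamycin, and MKI67 by -1.32 with MS275, against -1.51 and -1.87 with rapamycin.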

How the data were processed

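The authors deposited log2 signals, 1 per probe set and array. The submitters' processing notes name the affy package and RMA, with no version of either. RMA corrects background, brings the arrays to a common distribution and sums up the probes of a set, so values are relative to the other arrays processed with them. They were used as deposited. In the platform annotation 41091 of 54613 probe sets carry a single gene symbol, 1801 carry more than 1 and 11721 carry none, and 41037 of the singly named matched a RefSeq gene table (GRCh38.p14), which updated names. Each of 19775 genes was represented by the probe set of its own with the largest 17-array mean.

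Group means of all 6 groups were fitted in R 4.3.3 with limma 3.58.1 (lmFit, eBayes), 17 arrays in 1 model with 11 residual degrees of freedom, and p-values were adjusted over all genes by Benjamini-Hochberg with a threshold of 0.05. Changes are MS275 minus control with the SE of the fit, and n = 3 per group. The median 95% confidence interval of a change extended 0.54 to either side, a precision limited by how many arrays there are. No detection calls were used, so signal over background is not known. The model was also run on simulated data, with independent noise of the same spread on every array for each gene. Correlated arrays and arrays of unequal quality were not simulated.

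The members and the 56 gene lists (1294 of 1424 entries measured) were chosen with earlier results of these data known. Named genes are the 20 largest rises and falls without overlap, the 10 smallest adjusted p, up to 10 members per list past the threshold (the 3 smallest adjusted p where under 3 passed) and genes of interest, shown here in part. MXD4, which lacks a probe set of its own, was left out.

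The labels number the replicates 1 to 3 in each group without saying what a number stands for. Deviations of same-numbered MS275 and control arrays from their group means correlated across genes at 0.49, 0.40 and 0.50, all over 0.1. The numbers were therefore taken to pair the arrays from the data. The block was applied to all arrays, but in the 10 nM groups the numbers held less well. Against MS275, 1 nM and 10 nM rapamycin, replicate 2 of 10 nM rapamycin with MS275 gave -0.66, -0.74 and -0.63. Replicate 1 of that group gave 0.07, 0.13 and 0.10. Between MS275 and 10 nM rapamycin, replicate 1 gave -0.34, and replicates 2 and 3 gave 0.61 and 0.46. The fit with a replicate block is given where it changes a call named here or moves a count by over 1.5 times. Other alternatives were quantile normalization, array weights, leaving out the 2 narrow arrays or each array, fitting only the 6 arrays, leaving out the lower 40% of genes by mean, averaging probe sets, and a trended robust prior. The array weights were 0.11, 0.54 and 2.92 for control replicates 1, 2 and 3, and 1.08, 0.84 and 1.16 for the MS275 arrays. Replicate 1 of 1 nM rapamycin had 11.3, so the weighted fit leans on few arrays. No array values were identical between samples.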

Additional observations from a re-analysis of the deposited data

Results flagged for a closer look

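Probe sets with no gene name or with several lay outside the gene results, and a fit over all 54613 probe sets, chosen after seeing the data, called some of them with MS275 against control. Of 11721 probe sets with no gene, 33 were higher and 9 lower with MS275 (0.358%), and of 1801 with several genes, 9 were higher and 5 lower (0.777%), beside 242 higher and 123 lower of 41091 with 1 gene (0.888%). The largest change among the called probe sets with no gene was 4.45 (limma adjusted p = 0.00974). Its log2 signals were 8.68, 10.75 and 9.74 on the MS275 arrays, against 4.67, 6.16 and 4.97 on the control arrays.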

How the results depend on the processing

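The total of 295 genes (205 higher, 90 lower) was 1504 (772 and 732) with array weights, 662 (413 and 249) with the replicate block, 531 (288 and 243) without the 2 narrow arrays, 337 (224 and 113) with quantile normalization, 289 with probe sets averaged, 230 (174 and 56) with the trended robust prior and 218 without the lower 40% of genes. It was 9 (9 and 0) with only the 6 arrays and 78 (71 and 7) with those and the replicate block. Leaving out 1 array of the 17 gave 97 to 362 genes, 79 to 240 higher and 18 to 156 lower. The fewest came without MS275 replicate 3, and without control replicate 3 there were 157. The share of calls that were higher ran from 51.3% with array weights to 100% with only the 6 arrays, and without the narrow arrays it was 54.2%. MS275 under 1 nM rapamycin gave 243 genes, 559 with the block, 922 with array weights and 80 to 413 without single arrays. Under 10 nM it gave 86, then 338, 325, 262 without the narrow arrays, and 11 to 157. The difference between the effects gave 2 genes at 10 nM with array weights, and without single arrays 0 to 1 at 1 nM and 0 to 2 at 10 nM. MS275 against 1 nM rapamycin gave 424, then 805 without the narrow arrays, 765 with the block, 2036 with weights and 200 to 571 without single arrays. Against 10 nM it gave 445, then 777, 837, 1525 and 196 to 590. Leaving out single arrays for these rapamycin comparisons was chosen after seeing the data.

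Of 84 named genes past the threshold, all 84 kept the call and direction with the replicate block and with array weights, 81 with quantile normalization, 79 without the narrow arrays, 72 with the trended prior, 62 with probe sets averaged, 31 with only the 6 arrays and the block, 8 with only the 6 arrays, and 35 to 69 without 1 of the 6, with 0 reversed. The signs of some uncalled genes turned: with array weights CDKN1B was -0.20, HDAC3 -0.20, MAX -0.087, MCL1 -0.060 and MYC -0.027, with quantile normalization MCL1 was -0.011, without the narrow arrays CDKN1B was -0.28, and with probe sets averaged HDAC8 was -0.46 and SAP30L -0.0083. Without single arrays HDAC2 ran from -0.49 to 0.12, HDAC3 from -0.17 to 0.30 and CDKN1B from -0.28 to 0.51. The causes were not tested. Of 56 list medians, 15 moved by more than the spread between arrays without the narrow arrays and 0 with quantile normalization. The replicate block cannot alter a change, because MS275 and control hold the same replicate numbers. Directions and list medians under the block were thus fixed in advance, and only its p-values could differ.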

Other observations

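Paralogs that moved in opposite directions stood out among genes outside the naming rule, and they were chosen after their values were seen. TIAM1, an exchange factor that activates the small GTPase Rac, had 9.35, 8.87 and 9.57 on the MS275 arrays, against 7.05, 7.56 and 8.38 on the control arrays, while its relative TIAM2 had 6.64, 6.51 and 6.68 on the MS275 arrays, against 7.85, 7.65 and 7.62 on the control arrays. The changes were 1.60 ± 0.32 and -1.10 ± 0.22 (limma adjusted p = 0.0236 and 0.0216). In the cytohesins, exchange factors for ARF GTPases, CYTH3 changed by 1.09 ± 0.21 and CYTH4 by -1.03 ± 0.23 (adjusted p = 0.0197 and 0.0352). The call was lost without 3 of the 6 arrays, each left out in turn, for CYTH3, without 4 for TIAM1 and TIAM2, and without 5 for CYTH4. CAV1, the coat protein of caveolae, had 9.46, 9.31 and 9.48 on the MS275 arrays, against 6.95, 8.07 and 6.41 on the control arrays and rose by 2.28 ± 0.45 (adjusted p = 0.0209), a call that held without 1 of the 6 arrays and was lost without each of the others.

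Further rises joined groups already described. PTPRZ1 and PTPRM, receptor tyrosine phosphatases like PTPRD, changed by 1.62 ± 0.27 and 0.73 ± 0.16 (adjusted p = 0.00887 and 0.0412). SATB1, a chromatin organiser of lymphocytes, rose by 1.70 ± 0.30 (adjusted p = 0.0126) and PTGS2, the inducible cyclooxygenase, by 1.79 ± 0.37 (adjusted p = 0.0257). Among the falls were PFAS, an enzyme of purine synthesis, with -0.93 ± 0.20, TKT, a transketolase of the pentose pathway, with -0.89 ± 0.21, ADA, adenosine deaminase, with -0.83 ± 0.19, SUPT16H, a subunit of the histone chaperone FACT, with -0.77 ± 0.17, and HMGA1, a DNA-bending chromatin protein, with -0.98 ± 0.22. Their limma adjusted p were 0.031, 0.0496, 0.0399, 0.0414 and 0.0435. PTPRZ1 passed without each of the 6 arrays, while the call was lost without 1 of them for SATB1, without 4 for PTGS2, PFAS and ADA, without 5 for TKT, SUPT16H and HMGA1, and without any 1 of the 6 for PTPRM.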
